A study of Macaca fascicularis with 5 samples.

Results

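The GABA-A receptor subunits examined here are the products of 7 genes, GABRA2, GABRA3, GABRA4, GABRA5, GABRB1, GABRB2 and GABRD. They were taken by gene symbol from a table of 62655 transcripts of 20576 symbols, which holds 19 GABA-A subunit genes in all. The 7 genes have 30 annotated transcript variants, of which 3 were at 0 in every library and 20 passed the filter on low counts. All 7 genes passed the filter as gene totals, GABRD only through the deprived libraries.

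The RNA came from the dorsal lateral geniculate nucleus (dLGN), the thalamic relay of the visual pathway, of 5 cynomolgus monkeys (Macaca fascicularis), with 1 library per animal. The 3 control libraries were from untreated monkeys. The 2 deprived libraries were from monkeys whose left eye had been closed by suture, and hold the dLGN of that side. Values of the controls are listed throughout in the order Control-307, Control-317, Control-331, and values of the deprived libraries in the order Deprivated-316, Deprivated-326. The labels give an age of 3 months, with the suture kept from month 1 to month 3, whereas the study's text dates the collection later. The titles place Control-307 and Control-331 on the right side, and Control-317 on the left like both deprived libraries. The descriptions of the control libraries instead say that both sides had been combined, and those of the deprived libraries that only the left was sequenced because the RNA of the right was of low quality.

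Total estimated counts ran from 9424975 to 12966019 in the control libraries and were 7607859 and 7391844 in the deprived ones. Control-317 stood apart from the other controls: across 14317 genes, none of which is an independent replicate, its log2 CPM correlated with theirs at r = 0.849 and 0.872, while Control-307 correlated with Control-331 at 0.952 and Deprivated-316 with Deprivated-326 at 0.945. The labelled tissue was also uneven by its markers. SLC17A6, the glutamate transporter of thalamic relay neurons, stood at 16.5, 680 and 68.6 CPM in the controls and at 134 and 410 CPM among the deprived libraries, where CPM is the count scaled to a normalized library total of 1000000. The group means that the study printed for its receptors follow a division with Control-317 and Deprivated-316 exchanged, and neither the files nor the text state which division is right. GABRB2 variant X2, the subunit among them, has the same group means either way. Groups here are those of the labels, and results are also given without these libraries.

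GABA-A receptors are chloride channels built of 5 subunits around a pore, and GABA binds between an alpha and a beta subunit. Receptors with alpha2 or alpha3 and a gamma subunit serve fast synaptic inhibition. Those with alpha5, or with alpha4 and delta, lie largely outside synapses and carry a steady tonic current, which in rodent thalamic relay neurons depends on alpha4 and delta. Subunit use changes as the brain matures, and GABA-mediated inhibition in the dLGN shapes how visual signals are passed on to the cortex.

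No subunit gene passed the test for a difference between the deprived and the control group. All 7 gene totals were on the higher side in the deprived group, with a median log2 fold change of 0.56 beside -0.060 over all genes tested, of which 44.9% were on the higher side. The deprived libraries lay above all controls for GABRA2, GABRB1 and GABRD. That is 3 of 7 genes, against 15.2% of all genes with the groups apart in this direction, and the other 4 genes overlapped. GABRD is in these counts although it passed the filter only through the group where it was high, so they are descriptions. By edgeR's quasi-likelihood test 0 of the 7 genes (0% of all genes) had an adjusted p under 0.05, and their adjusted p ran from 0.382 to 0.891. At an unadjusted p under 0.05 there were 2, GABRB1 and GABRD, both higher, against 9.76% of all genes (5.69% higher). The exact test and DESeq2 called 0 of the 7 as well, with lowest adjusted p-values of 0.0906 for GABRD and 0.0795 for GABRB1, and called 1.59% and 2.21% of all genes. For a single gene, the smallest two-sided p that an exact rank test of 3 libraries and 2 can reach is 0.2. In bulk tissue, fewer cells of a type and less RNA per cell cannot be told apart.

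**Figure D1:**
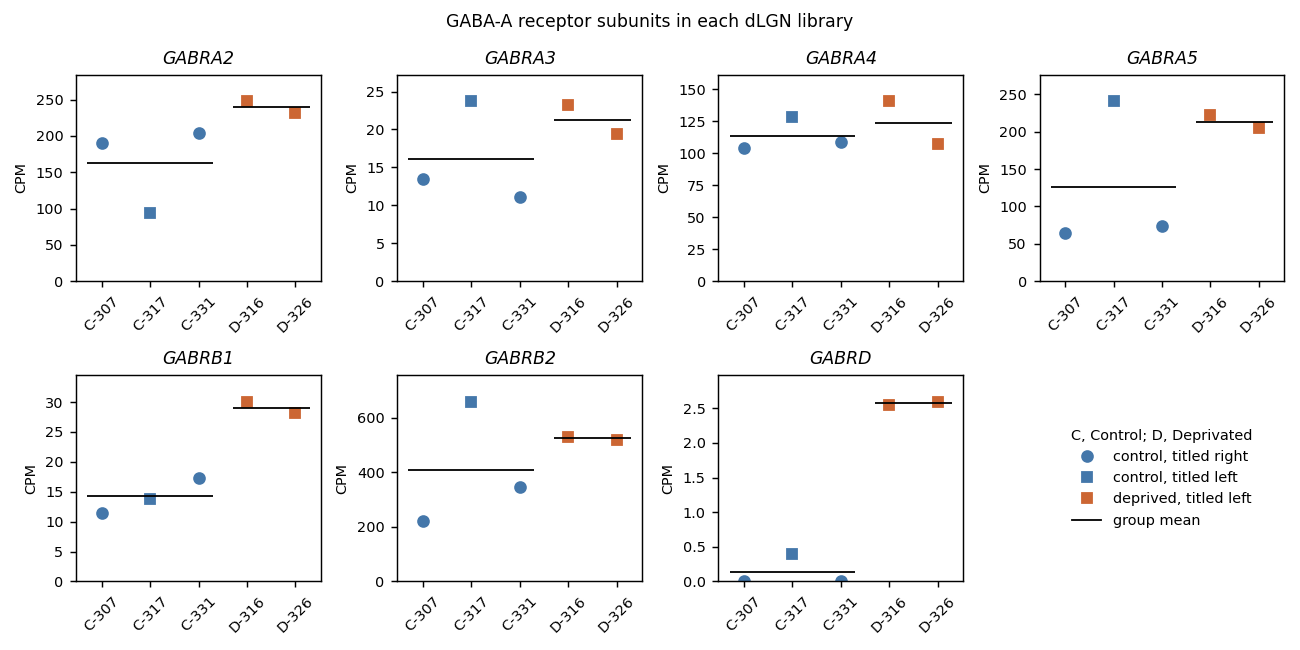
Level of each subunit gene in each library, in CPM on a linear axis, with control libraries in blue, deprived libraries in orange, circles for right-titled and squares for left-titled libraries, and a line at each group mean. GABRA2, GABRB1 and GABRD were higher in both deprived libraries than in every control, whereas for GABRA3, GABRA5 and GABRB2 the left-titled Control-317 lay above both deprived libraries.

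GABRA5 encodes alpha5, a subunit of extrasynaptic receptors known best from the hippocampus. Its gene total was 64.9, 241 and 73.6 CPM in the controls and 222 and 205 CPM in the deprived libraries. Control-307 and Control-331 were low, and Control-317 was above both deprived libraries. The log2 fold change was 0.76 (SE 0.61, adjusted p = 0.727). Control-317 decided this value: without it the log2 fold change was 1.63 (SE 0.13, adjusted p = 0.0144). Without both Control-317 and Deprivated-316 it was 1.56, from a fit that left only Deprivated-326 in the deprived group. Once Control-317 is left out, the remaining controls are both right-titled and the deprived libraries both left-titled, so that side and deprivation cannot be told apart.

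GABRA2 encodes alpha2, a synaptic subunit of forebrain neurons. It stood at 191, 93.5 and 204 CPM in the controls with 248 and 232 CPM in the deprived libraries. The groups did not overlap, but the gap between the deprived libraries and the nearest control was small beside the distance from Control-317 to the other controls. The log2 fold change was 0.56 (SE 0.37, adjusted p = 0.661), and 0.28 without Control-317.

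GABRA3, which encodes alpha3 and in rodents marks the inhibitory neurons of the thalamic reticular nucleus, stood at 13.5, 23.7 and 11.1 CPM in the controls and 23.2 and 19.4 CPM in the deprived libraries (log2 fold change 0.40, SE 0.38, adjusted p = 0.769). As for GABRA5, Control-317 lay with the deprived libraries and the other controls lay below them. Markers of GABAergic neurons of the thalamus (14 of 16 tested, 7 on the higher side) summed to 540, 303 and 651 CPM in the controls and 508 and 424 CPM in the deprived libraries, lowest in Control-317, where GABRA3 was highest. Of their defining genes GAD2, a GABA-making enzyme, stood at 120 to 381 CPM. GAD1, the other such enzyme, stood only at 0, 1.36 and 12.9 CPM in the controls and 0.268 and 0.819 CPM in the deprived libraries. PVALB, the parvalbumin gene of many reticular neurons, was at 0 in all 5 libraries.

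GABRA4 encodes alpha4, the usual partner of delta in relay neurons. It was the most even of the 7 genes, at 104, 128 and 108 CPM in the controls and 140 and 107 CPM in the deprived libraries. The groups overlapped (log2 fold change 0.12, SE 0.22, adjusted p = 0.891), and the sign turned to -0.081 without Deprivated-316.

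GABRB1 and GABRB2 encode beta1 and beta2, which complete the GABA site and set the assembly of the channel. GABRB1 stood at 11.5, 13.8 and 17.3 CPM in the controls with 30.0 and 28.1 CPM in the deprived libraries. All controls, Control-317 included, were below both deprived libraries. The log2 fold change was 1.03 (SE 0.25, unadjusted p = 0.00813, adjusted p = 0.382), and it ran from 0.90 to 1.20 when each library was left out in turn. GABRB2 stood at 223, 658 and 344 CPM in the controls and 530 and 519 CPM in the deprived libraries. The highest GABRB2 value was in a control, and the groups overlapped (log2 fold change 0.36, SE 0.47, adjusted p = 0.845). Without Control-317 its log2 fold change was 0.89 with an adjusted p of 0.0688.

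GABRD encodes delta, the subunit that marks tonic receptors in relay neurons, dentate granule cells and cerebellar granule cells of rodents. It was close to the limit of detection in every library. Control-307 and Control-331 held 0 counts, which allow up to 0.310 and 0.287 CPM by a floor of 3 counts. Control-317 held 4.80 counts (0.400 CPM), and Deprivated-316 and Deprivated-326 held 19.2 counts each (2.55 and 2.59 CPM). Both deprived libraries were thus above all controls. Summed over each group the rounded counts were 38 against 5, a rate ratio of 16.8 with an exact 95% interval of 6.59 to 54.6 that covers counting error only. The edgeR log2 fold change of 4.04 (SE 1.31, unadjusted p = 0.0243, adjusted p = 0.449) depends on the prior count because most controls are at 0. Without Control-317 GABRD passed the test (adjusted p = 0.0350), but then all remaining controls are at 0.

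Among single libraries, only Control-317 changed a call when it was left out. With it removed, GABRA5 had an adjusted p under 0.05 and was higher, against 10.1% of all genes (6.46% higher). GABRD did too, but it passed the filter only through the deprived libraries and every remaining control was at 0, so its call is not read against this share. At an unadjusted p under 0.05 there were 5 of 7, GABRD included, against 31.7%. Without both Control-317 and Deprivated-316, only GABRA5 of the 7 passed, against 0.935% of all genes (0.64% higher). Grouped by the side in the titles, the ranges of GABRA3, GABRA5, GABRB2 and GABRD lay apart, with every left-titled library above both right-titled ones. These are 4 of 7 genes, against 21.7% of all genes apart in that direction. GABRD is in this count although it passed the filter only through the deprived libraries, which are both left-titled, so the count is a description.

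**Figure D2:**
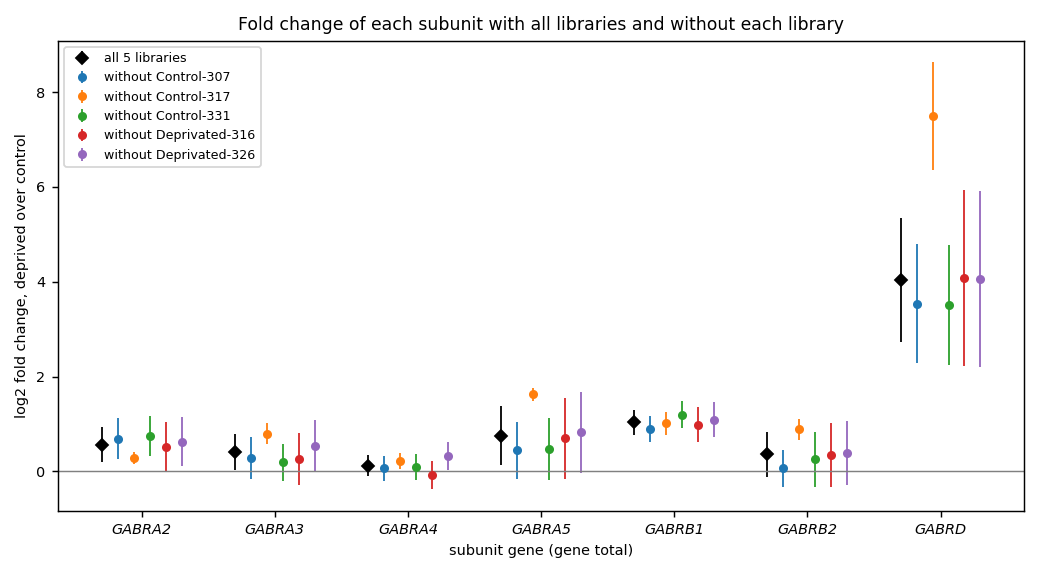
Log2 fold change of each subunit gene, deprived over control, from edgeR with all 5 libraries (black diamonds) and with each library left out in turn (coloured circles), with bars of 1 SE. GABRB1 stayed between 0.90 and 1.20, GABRA5 moved to 1.63 and GABRD to 7.50 without Control-317, and GABRA4 lay near 0 throughout.

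Levels of different genes were compared as FPKM, a level that is scaled to transcript length and library size, as deposited and summed over the variants of a gene. GABRB2 was the most abundant of the 7 in all libraries but Deprivated-316, with 20.2, 60.3 and 32.5 FPKM in the controls and 46.0 and 45.7 FPKM in the deprived libraries. GABRA5 stood at 15.2, 53.9 and 17.8 FPKM in the controls and 47.9 and 45.6 FPKM in the deprived libraries. It was above GABRB2 in Deprivated-316 alone, and just below GABRA2 (15.5 FPKM) in Control-307. The spread of both genes over libraries was larger than the distance between them. GABRA2 (7.64 to 19.3 FPKM) and GABRA4 (13.8 to 17.9 FPKM) changed places between libraries, as did GABRA3 (3.78 to 7.98 FPKM) and GABRB1 (2.14 to 8.05 FPKM) below them. GABRD was lowest everywhere, with at most 0.69 FPKM.

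Together the 7 genes made up 34.8%, 43.1% and 37.7% of the summed FPKM of all 19 GABA-A subunits in the controls, and 47.3% and 44.8% in the deprived libraries. The alpha subunits divided this differently from library to library. GABRA5 took 7.4% and 7.5% of the family in Control-307 and Control-331 but 15.4% in Control-317, 15.4% in Deprivated-316 and 14.8% in Deprivated-326. The ratio of GABRA5 to GABRA2 in FPKM was 0.983 and 1.04 in Control-307 and Control-331, 7.05 in Control-317, and 2.48 in both deprived libraries. Both deprived libraries thus lay between Control-317 and the other controls. Of the other 12 subunit genes in the table, 8 were tested and 0 passed the test. Over all 15 tested subunits 12 were on the higher side, against 44.9% of all genes, with a median log2 fold change of 0.45. The 15 include the 7 genes above, which were all on the higher side, so this count is not separate support.

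Each variant was then compared, since StringTie divides the reads that variants share by estimate. None of the 20 tested variants of the 7 genes passed the quasi-likelihood test (0% of all transcripts), with adjusted p-values from 0.806 to 1.00, and none had an unadjusted p under 0.05, against 6.41% of all transcripts. The deprived libraries lay above all controls for 6 of the 20 variants, against 14.4% of all transcripts. X2 of GABRD is in this count although it passed the filter only through the deprived libraries. X2 of GABRB1, which was scarce in Control-307 and Control-331, also needed the deprived libraries to pass. Variants of the same gene, as of GABRA2 and GABRB1 in this count, are not independent, so the count is a description.

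The clearest variant pattern was in GABRB2, whose variant X2 (XM_005558445.2) is among the receptors that the study picked from these libraries, so it is not independent evidence. Variant X2 held 343, 0 and 340 counts in the controls and 0 in both deprived libraries. It was present in both right-titled libraries and absent in all left-titled ones. Per length it made up 16.0% of GABRB2 in Control-307 and 9.48% in Control-331, and the 0 counts of Control-317, Deprivated-316 and Deprivated-326 allow at most 0.0365%, 0.0759% and 0.0789% of the counts of the gene. Pooled over the groups, X2 was 106-fold lower in the deprived libraries if 3 counts are taken as the floor of that group. This floor and the limits on the share cover counting error only. They cover neither the division of shared reads nor the spread between animals. As Control-317 was at 0 too, the groups overlapped, and the quasi-likelihood test gave an adjusted p of 0.806. DESeq2, which called 3.16% of all transcripts, gave an adjusted p of 0.0450, and the exact test, which called 1.39%, gave 0.612. Over the alternatives that gave a value the adjusted p of X2 ran from 0.0450 to 1.00. Without Control-307 or without Control-331 X2 was not tested.

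The other variants of GABRB2 did not share this pattern. Variant X3, the main form with 74.8% to 91.0% of the FPKM of the gene, held 1582, 7363 and 2958 counts in the controls and 3402 and 3170 in the deprived libraries (log2 fold change 0.33, SE 0.56). Variant X1 stood at 24.1, 69.5 and 29.1 CPM in the controls with 73.6 and 85.5 CPM in the deprived libraries (log2 fold change 0.96, SE 0.52, adjusted p = 0.823). So the gene total of GABRB2 and its variant X2 pointed in opposite directions. The share of X2 within the gene was tested by edgeR's usage test, which gave an unadjusted p of 0.00818 and an adjusted p of 0.560 (0.212% of all transcripts passed), and one of 0.00291 without Control-317 (0.606% passed). X2 passed the filter only through Control-307 and Control-331, the controls left in that setting, so this call is a description. Both are right-titled and the deprived libraries left-titled, so side and deprivation cannot be told apart there. For usage at the level of the gene, 0 of 5 subunit genes with more than 1 tested variant passed, against 1.31% of genes. Without Control-317, a variant of GABRA2, like X2 of GABRB2, passed the filter only through the remaining controls. A variant of GABRB1 passed it only through the deprived libraries. The same limit of side holds, so the count there is a description and is not read against the share of all genes. The subunit genes past the usage test there were 3 of 5, GABRA2, GABRB1 and GABRB2, beside 4.07% of genes. Without both Control-317 and Deprivated-316 they were 0 of 5, with adjusted p-values of 0.554, 0.233 and 0.112 for these genes, against 0.419% of genes, and the adjusted p for the share of X2 was 0.129.

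Absence from every left-titled library with at least 10 counts in both right-titled ones was shared by 329 transcripts, 0.983% of those tested. Besides X2 of GABRB2 it held for 1 variant of GABRA2, X8, which was chosen after its values were seen. It had 36.4, 0 and 72.8 counts in the controls and 0 in both deprived libraries. The main form of GABRA2, X7, took 79.0% to 88.5% of the gene in every library, and X2 of GABRA2 reached 16.1% in Control-317 and 2.16% to 4.77% elsewhere.

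**Figure D3:**
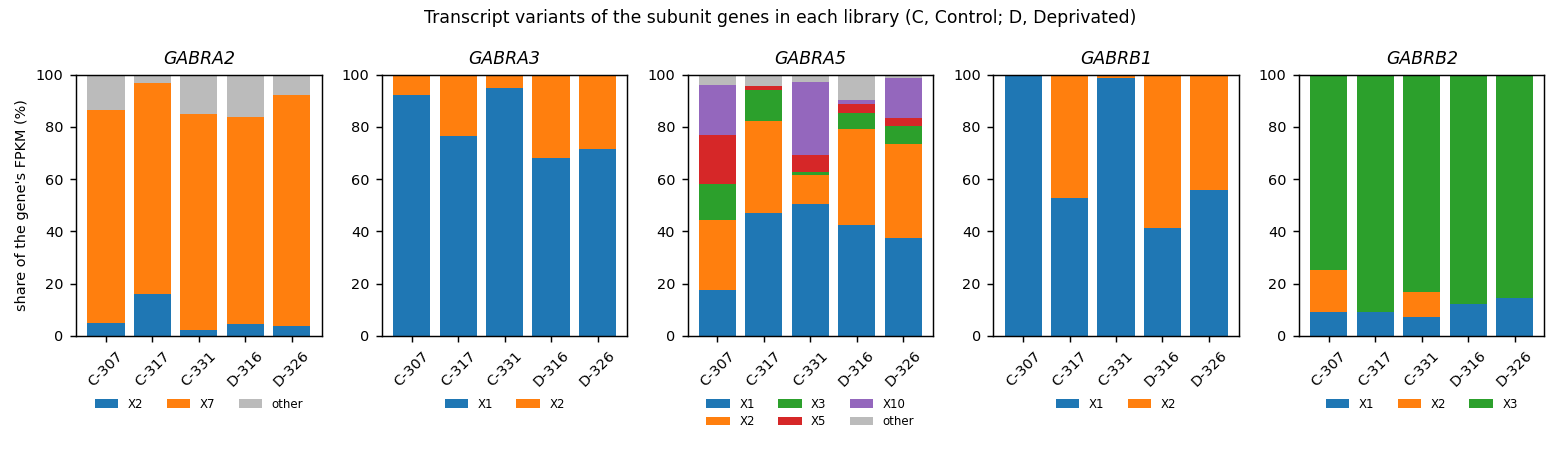
Share of each named transcript variant in the FPKM of its gene, in percent, for each library as a stacked bar from 0 to 100. Variant X2 of GABRB2 appears only in Control-307 and Control-331, and variant X2 of GABRB1 takes 47.3% in Control-317, 58.8% and 44.2% in the deprived libraries and at most 1.47% in the other controls.

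GABRB1 and GABRA3 each have a pair of variants, and in both genes X2 was scarce in the right-titled libraries. For GABRB1, X2 held 0, 48.6 and 1.19 counts in the controls and 86.0 and 52.9 in the deprived libraries. In CPM these were 0, 3.93 and 0.115 in the controls against 11.5 and 7.14, so both deprived libraries were above all controls and Control-317 lay between them and the other controls (log2 fold change 2.76, SE 2.01, adjusted p = 0.950). The 0 in Control-307 allows up to 2.70% of the gene's counts, by counting error alone. X1 of GABRB1 differed less, with a log2 fold change of 0.58 (SE 0.39). For GABRA3, X2 held 9.15, 64.6 and 5.53 counts in the controls and 51.7 and 37.9 in the deprived libraries, or 7.71%, 23.7% and 5.29% and then 32.1% and 28.7% of the FPKM of the gene. Its log2 fold change was 1.41 (SE 1.13) beside 0.10 (SE 0.40) for X1.

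GABRA5 had the most divided set, with 9 of its 10 variants detected and 5 of them at 10% or more of the gene in at least 1 library. X1 took 17.5% to 50.4% and X2 10.9% to 36.8% of its FPKM. X2 followed the gene total, with 177, 1050 and 88.6 counts in the controls and 617 and 558 in the deprived libraries (log2 fold change 1.07, SE 0.98, adjusted p = 0.988). X10 instead held 108, 0 and 193 counts in these controls and 24.3 and 205 in the deprived libraries, which stood apart from each other. X3 and X5 ranged over 1.46% to 13.9% and 1.49% to 18.8% of the gene. GABRA4 has a single variant. Of the 2 variants of GABRD, X1 was at 0 in every library and all counts were of X2.

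Markers of several cell types moved with the subunits, and their part in these values was not tested. None of the markers of the 5 lists given here, or of the GABAergic list given with GABRA3, passed the edgeR test between the groups. DESeq2 called 8 of 17 tested markers of excitatory neurons of cortex and hippocampus, 0 of the other 4 lists and 1 of the GABAergic list, against 2.21% of all genes. Without Control-317 edgeR called 10 of 17 cortical and hippocampal, 6 of 14 general neuron, 1 of 16 relay and 1 of 13 GABAergic markers higher. It called 15 of 20 striatal and 1 of 12 oligodendrocyte markers lower. Over all genes 10.1% were called in that setting (6.46% higher). Some markers of the cortical and hippocampal list needed the deprived libraries, where they were high, to pass the filter. The counts of that list are therefore descriptions and are not read against these shares. Neurons in general (14 of 14 markers tested, 9 of them on the higher side in the deprived group) had summed levels of 4920, 11581 and 5038 CPM in the controls and 8639 and 9044 CPM in the deprived libraries. As for GABRA3, GABRA5 and GABRB2, Control-317 was highest and the other controls were lowest. Markers of thalamic relay neurons (16 of 16 tested, 5 on the higher side, and 1 at 0 in Deprivated-316) summed to 257, 2402 and 403 CPM in the controls and 566 and 1312 CPM in the deprived libraries, also highest in Control-317.

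Markers of striatal spiny neurons, 20 of 20 on the lower side in the deprived group and 1 at 0 in Control-317, summed to 10625, 814 and 9789 CPM in the controls and 3540 and 2850 CPM in the deprived libraries. These are neurons of the basal ganglia and not of the dLGN. The libraries highest for these markers were those with GABRB2 X2 and with the lowest GABRA5, and the lowest, Control-317, was lowest for GABRA2. PPP1R1B, a defining striatal gene, stood at 603, 39.1 and 563 CPM in the controls and 186 and 121 CPM in the deprived libraries.

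For excitatory neurons of cortex and hippocampus 15 of 17 markers were on the higher side in the deprived group. Some, such as SLC17A7, needed the deprived libraries to pass the filter, so this count is a description. The list summed to 449 to 475 CPM in the controls and to 2082 and 1258 CPM in the deprived libraries. Of 19 listed markers in the table, 4, 5 and 1 were at 0 in the controls and 0 in the deprived libraries. As for GABRA2, GABRB1 and GABRD, both deprived libraries lay above all controls. SLC17A7, the glutamate transporter of cortical neurons, was at 0 counts in Control-307 and Control-317, at 24.6 in Control-331 and at 328 and 100 in the deprived libraries. Markers of oligodendrocytes, 0 of 12 on the higher side in the deprived group, summed to 12265 to 16031 CPM in the controls and 6581 and 11238 CPM in the deprived libraries.

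**Figure D4:**
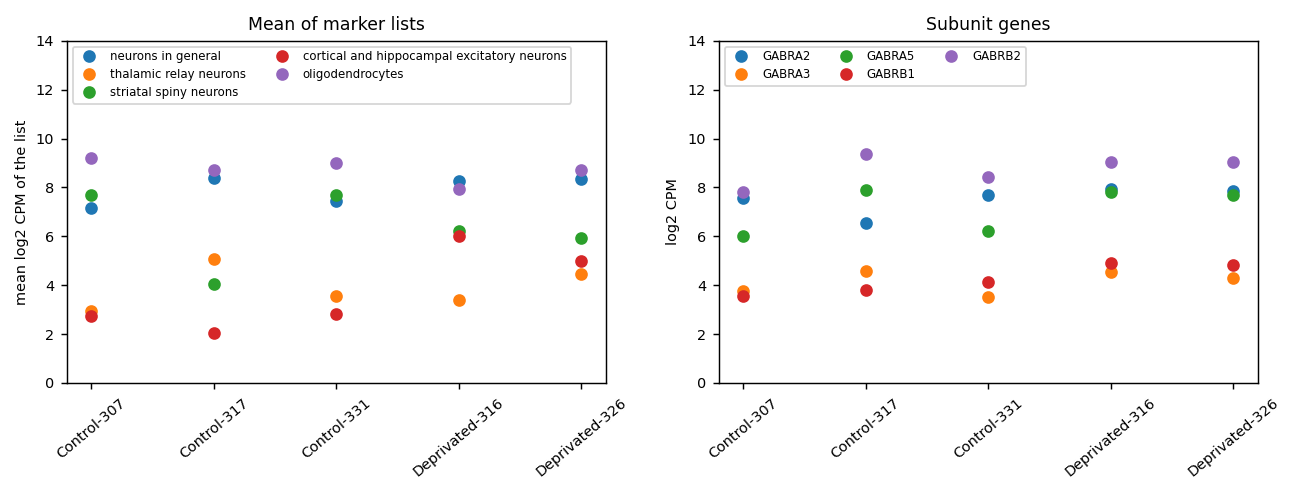
Left, mean log2 CPM of 5 marker lists in each library, and right, log2 CPM of 5 subunit genes in the same libraries, each point 1 library. GABRA5 and GABRB2 were lowest in Control-307 and Control-331, where the striatal list stood at 7.69 and 7.67, and the cortical and hippocampal list was highest in Deprivated-316 at 5.99 and Deprivated-326 at 4.98.

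Other genes of the GABA pathway were counted by list, and 0 of the members tested passed the quasi-likelihood test. Of the GABA-B receptor genes, which code for the metabotropic GABA receptor and its auxiliary KCTD proteins, 4 of 5 were on the higher side, with a median log2 fold change of 0.73, and 2 of 5 had an unadjusted p under 0.05, against 9.76% of all genes. KCTD16 stood at 79.0 to 96.9 CPM in the controls and 221 and 143 CPM in the deprived libraries (log2 fold change 1.04, adjusted p = 0.363). KCTD8 had a log2 fold change of 0.73, GABBR1 one of 0.37 and KCTD12 one of -0.86. DESeq2 called 1 of these 5 genes, against 2.21% of all genes.

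Genes that anchor or carry GABA-A receptors were divided, with 13 of 24 tested on the higher side, a median of 0.040 and 3 at an unadjusted p under 0.05, against 9.76% of all genes. The postsynaptic adhesion protein NLGN2, which gathers receptors at inhibitory synapses, had a log2 fold change of 0.61, and DMD, whose product dystrophin lies at such synapses, one of 0.67. MDGA1, a partner of neuroligins that limits inhibitory synapses, had one of 1.51 (adjusted p = 0.377). CLPTM1, which holds subunits back in the endoplasmic reticulum, had one of -0.50. DESeq2 called 1 of these 24 genes, against 2.21% of all genes.

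Genes of GABA synthesis, release, uptake and breakdown were mostly on the lower side, 8 of 10, with a median of -0.42. Neither they nor the chloride genes included one with an unadjusted p under 0.05 or a DESeq2 call. ABAT, the enzyme that breaks GABA down, had a log2 fold change of -0.47, DBI, whose product binds benzodiazepine sites, one of -0.64, and SLC6A11, a GABA transporter of astrocytes, one of -0.83. Of the chloride genes, which set whether GABA inhibits, 4 of 9 were on the higher side, with a median of -0.016. SLC12A5, the neuronal chloride exporter, ran from 267 to 486 CPM in the controls and stood at 568 and 481 CPM in the deprived libraries, and the groups overlapped (log2 fold change 0.62, adjusted p = 0.592). WNK1 and CLCN3 had values of -0.32 and -0.15. SLC12A7 had one of 2.54, from at most 1.24 CPM in the controls and 2.68 and 3.96 CPM in the deprived libraries. It needed the deprived libraries to pass the filter, so its place among the 4 is a description.

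The genes whose pattern over the 5 libraries was most like each subunit were taken among 13112 genes by the smallest root mean square difference of centred log2 CPM. For GABRA2 these were LOC102145189 (0.040) and HNRNPU (0.050), for GABRA3 ADRBK2 (0.040) and POMGNT2 (0.063), for GABRA4 TRIM32 (0.024) and NSUN4 (0.035), and for GABRA5 TMEM8B (0.053) and UNC80 (0.060). For GABRB1 they were PIWIL1 (0.069) and ATN1 (0.092), for GABRB2 TRIM66 (0.056) and LRSAM1 (0.064), and for GABRD AK5 (0.25) and STX1A (0.32), the loosest match. With 5 points each, such matches describe these libraries only. In the RefSeq annotation of another assembly of this species, T2T-MFA8v1.1, GABRA4 and GABRB1 are neighbouring coding genes and COX7B2 lies between GABRA4 and GABRA2. In these libraries the neighbours GABRA4 and GABRB1 had log2 fold changes of 0.12 and 1.03.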

How the data were processed

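RNA of 5 dLGN libraries had been enriched for polyadenylated RNA and sequenced. Per the labels and the study's methods, the authors filtered reads with fastp 0.18.0, aligned them to Macaca_fascicularis_5.0 (the text names HISAT2, the deposited notes list Bowtie2 2.2.8) and quantified transcripts with StringTie 1.3.4. The authors deposited estimated counts and FPKM per transcript. Variants share reads, which StringTie divides by estimate, so shares of variants are less certain than gene totals.

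Estimated counts were rounded to whole numbers after summing over the variants of a symbol (gene totals) or per transcript, and the groups were tested with edgeR 4.0.16 (quasi-likelihood test, TMM normalization, filterByExpr) in R 4.3.3 with Benjamini-Hochberg adjustment over all 14317 genes or 33469 transcripts and a threshold of 0.05. Standard errors were derived from the F statistic. Usage was tested with edgeR's diffSpliceDGE. CPM were scaled to TMM-normalized totals, with a prior count of 2 for log2 CPM. The comparison was repeated with DESeq2 1.42.0, the exact test of edgeR, limma (3.58.1) on log2 of FPKM plus 0.1 or 1, other size factors, no low-count filter and left-out libraries. On simulated counts of genes the quasi-likelihood test, the exact test, DESeq2 and limma on log2 of CPM plus 0.1 were run. On simulated counts of transcripts only the quasi-likelihood and usage tests were run. The outcome is not reported here. The p-values measure the spread between single animals. Where a deprived library was left out only 1 remained, so those fits hold no spread between deprived animals.

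Named were the 7 genes, variants with at least 10% of a gene's FPKM in any library, up to 4 genes per pathway list with the smallest p and 2 genes of similar pattern per subunit. Variant X8 of GABRA2 lies outside this rule. Other GABA-A subunits are given as a group, and some genes that the rule takes are not reported here. Genes and lists were chosen with earlier results of these data known. No sequences or coordinates are given, since no genome of this build was used here. The qPCR and protein data were not used here.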

Additional observations from a re-analysis of the deposited data

How the results depend on the processing

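Of the gene-level values of the 7 subunits under the alternatives, 87 kept direction and side of the threshold, 1 reversed and 3 crossed the threshold. These counts include settings with only 1 deprived library left. GABRA4 ran from -0.081 to 0.32 when a library was left out, reversing without Deprivated-316. With libraries left out in turn GABRA5 ran from 0.44 to 1.63 and GABRD from 3.52 to 7.50, and without Control-317 and Deprivated-316 together GABRA5 had 1.56. The number of genes past the test was 0 higher and 0 lower. It was 198 higher and 29 lower by the exact test, 263 and 68 by DESeq2, 1 and 0 by limma on log2(FPKM + 1), 93 and 43 without Control-317 and Deprivated-316 together, and 0 to 905 higher and 0 to 515 lower with a library left out, the highest without Control-317. For transcripts it was 0 and 0, with 261 higher and 203 lower by the exact test and 414 and 631 by DESeq2. Genes past the usage test numbered 99, and 25 with no filter, 33 without Control-317 and Deprivated-316 together (added after seeing the data) and 1 to 293 with a library left out, the lowest without Deprivated-316 and the highest without Control-317.

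Among variants, the sign of X5 of GABRA5 (-0.051) turned to 0.12 and 0.033 by limma on log2(FPKM + 0.1) and log2(FPKM + 1). With a library left out it ran from -0.38 to 0.69, X3 of GABRA5 from -0.51 to 1.33, X10 of GABRA5 from -1.65 to 1.46, X1 of GABRA3 from -0.061 to 0.35, X2 of GABRA2 from -0.31 to 0.53 and X3 of GABRB2 from -0.016 to 0.95. The cause was not tested.

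By estimated counts rather than FPKM, X2 of GABRB1 made up 28.1% of the gene in Control-317 and 38.4% and 25.7% in the deprived libraries. No paired analysis was possible because each animal gave 1 library and the numbers in the titles are not shared between groups. Without Control-307 or Control-331, X2 of GABRB2 gave no value. GABRD held a few counts per library, and its interval covers counting error and not the spread between animals.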

Other observations

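Glycine receptors, the other chloride channels of inhibitory synapses, were measured alongside. Of 6 genes on the list 4 were tested, 2 of them on the higher side, with a median log2 fold change of 0.094, and 0 passed the edgeR test (0 also at an unadjusted p under 0.05 and 0 by DESeq2). GLRB, the beta subunit that binds the scaffold gephyrin, stood at 33.5 to 58.9 CPM in the controls and at 51.8 and 68.1 CPM in Deprivated-316 and Deprivated-326 (log2 fold change 0.35, adjusted p = 0.746). GLRA2, the alpha2 glycine receptor subunit of the developing brain, had a log2 fold change of 0.21, and SLC6A9, a glial glycine transporter, one of -0.53. GLRA3 was at 0 in Deprivated-316 and at 5.05 CPM in Deprivated-326, so the deprived libraries differed from each other by more than their mean differed from that of the controls.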
